A study of Homo sapiens with 9 samples.

Results

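The DNA replication genes described here are 46 protein-coding genes whose products license replication origins, unwind and copy DNA, supply deoxynucleotides or repackage the new strands. They were chosen by gene name. All 46 were found among the 58336 genes of the deposited count table, each in a single row. The RNA came from HaCaT cells, an established line of spontaneously immortalised human skin keratinocytes. The labels describe 9 samples in 3 groups of 3. The control group had no treatment. Each of the treated groups was given photodynamic therapy at low dose with 5-aminolevulinic acid (ALA-PDT), a precursor that cells turn into a light-sensitive porphyrin: 0.5 mmol/L ALA and red light of 635 ± 5 nm at 3 J/cm2, followed by incubation for 12 h in one group and 48 h in the other. All groups were the same cell line, and nothing in the labels says whether the samples of a group were separate cultures, so p-values measure only the spread between these libraries, which may be technical.

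The tables name their 9 columns Nc1 to Nc3, A1 to A3 and B1 to B3. Nc was read as an abbreviation of control, which the labels do not spell out. The stems A and B were taken as treated because the other 6 of the 9 samples were treated, and no source used here ties either stem to 12 h or 48 h. The libraries are therefore named by stem, A and B are never placed in time, and every difference below is one between stems. If Nc were not the control, each difference would still hold between the named columns but not between the conditions.

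DNA is copied once per cell cycle. In G1 the origin recognition complex, with CDC6 and CDT1, loads the ring of MCM2 to MCM7 onto DNA, and in S phase CDC45, the GINS complex and MCM10 turn that ring into an active helicase. Polymerase alpha with its primase starts each strand, the replication factor C complex loads the PCNA clamp, and polymerases delta and epsilon extend. Many of these genes are targets of E2F transcription factors and peak in late G1 and S phase, so in cultured keratinocytes their messenger RNA is often read as a sign of proliferation. In RNA of a whole culture, fewer cells in S phase and less of these messages per cell cannot be told apart.

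Total counts were between 15337296 and 18028419 per library. The 10 genes listed here as keratinocyte markers summed to between 10190 and 11251 CPM (counts scaled to library size) in the controls. The sums were between 12329 and 13430 in A and between 8394 and 9728 in B, so the stems did not overlap. The sums were carried mainly by KRT7, KRT8, KRT18 and SFN. KRT14, a marker of basal keratinocytes, had only between 2 and 20 counts in any library. KRT5, TP63, COL17A1, ITGA6 and ITGB4, also on the list, each had at least 1952 counts in every library. The sum follows mainly KRT7, KRT8, KRT18 and SFN, and was not read as a measure of keratinocyte identity. Counts of blood genes differed between libraries of a stem: HBB, a haemoglobin chain, had 6700, 6665 and 2 counts in the controls, 519, 1115 and 7 in A, and 4, 6 and 7550 in B. The fibroblast genes COL3A1, DCN and LUM were at 0 in each control and B library and in A3, and had between 9 and 31 counts in A1 and A2. Of the other fibroblast genes listed, COL1A1 had between 17 and 71 counts, COL1A2 between 6 and 58, and PDGFRB between 0 and 7. The endothelial gene CDH5 had between 24 and 52 counts in the control and A libraries and between 185 and 230 in B. The other endothelial genes listed did not share that difference: PECAM1, VWF and KDR had at most 22, 4 and 4 counts in any library. The results below were recomputed without the 5 libraries with over 100 HBB counts, and the part of the keratinocyte, fibroblast and endothelial transcripts in them was not tested.

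Promoter windows of 6 members are shown because their genes gave the differences described below: POLA1, MCM10, RRM1 and RFC1 were lower in B than in control, and PCNA and ORC6 were higher in B than in A. Each is the 250 bases before the RefSeq start on GRCh38.p14, 5′ to 3′ on the gene's strand. Capitals mark matches on either strand to CCAAT, the box bound by the factor NF-Y, or to an E2F motif, searched as TTTCCCGC, TTTGGCGC, TTTCGCGC and TTTGCCGC. The windows lie at chrX:24693668-24693917 (+) for POLA1, chr10:13161308-13161557 (+) for MCM10, chr11:4094435-4094684 (+) for RRM1, chr4:39366363-39366612 (-) for RFC1, chr20:5126623-5126872 (-) for PCNA and chr16:46689409-46689658 (+) for ORC6.
POLA1: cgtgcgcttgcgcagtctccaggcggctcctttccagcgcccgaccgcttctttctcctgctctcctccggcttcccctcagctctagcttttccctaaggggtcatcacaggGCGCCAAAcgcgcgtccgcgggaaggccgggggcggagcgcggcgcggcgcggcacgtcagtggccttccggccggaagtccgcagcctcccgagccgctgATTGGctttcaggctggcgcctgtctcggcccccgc
MCM10: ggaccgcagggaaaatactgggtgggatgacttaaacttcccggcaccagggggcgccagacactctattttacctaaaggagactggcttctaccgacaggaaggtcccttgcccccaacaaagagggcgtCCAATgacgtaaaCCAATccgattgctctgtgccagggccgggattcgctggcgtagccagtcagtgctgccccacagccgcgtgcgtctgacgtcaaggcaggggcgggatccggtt
RRM1: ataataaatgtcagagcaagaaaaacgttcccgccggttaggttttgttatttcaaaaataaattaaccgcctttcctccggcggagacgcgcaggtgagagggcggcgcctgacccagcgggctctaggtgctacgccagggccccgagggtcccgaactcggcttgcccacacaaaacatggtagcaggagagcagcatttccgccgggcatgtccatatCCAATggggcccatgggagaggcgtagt
RFC1: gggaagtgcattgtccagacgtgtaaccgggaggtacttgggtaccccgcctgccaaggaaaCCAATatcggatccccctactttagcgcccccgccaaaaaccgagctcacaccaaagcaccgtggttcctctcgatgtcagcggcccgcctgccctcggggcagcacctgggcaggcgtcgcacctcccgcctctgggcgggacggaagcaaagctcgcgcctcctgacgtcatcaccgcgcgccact
PCNA: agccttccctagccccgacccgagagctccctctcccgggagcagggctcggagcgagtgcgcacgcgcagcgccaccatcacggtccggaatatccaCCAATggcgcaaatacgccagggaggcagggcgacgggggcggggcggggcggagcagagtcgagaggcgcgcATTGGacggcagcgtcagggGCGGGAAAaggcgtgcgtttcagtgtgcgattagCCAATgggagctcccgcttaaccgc
ORC6: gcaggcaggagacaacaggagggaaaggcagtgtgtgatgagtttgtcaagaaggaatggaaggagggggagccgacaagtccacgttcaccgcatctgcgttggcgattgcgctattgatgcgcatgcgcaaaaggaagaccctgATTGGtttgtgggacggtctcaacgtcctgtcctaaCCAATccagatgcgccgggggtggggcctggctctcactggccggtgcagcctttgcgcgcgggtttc

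POLA1 and PCNA each held 1 E2F match, and the other 4 windows held none. CCAAT matches numbered 3 in PCNA, 2 in MCM10 and in ORC6, and 1 in POLA1, RRM1 and RFC1. Both the genes that were lower and those that were higher thus carried the box. Of the 39 members with a RefSeq window, 14 (35.9%) held an E2F match, against 2.79% of 27305 windows of the same length over all genes. CCAAT was in 22 (56.4%), against 33.0% of all windows, and GGGCGG, the box bound by SP1, searched on both strands, in 27 (69.2%), against 42.3%. The cell-cycle homology region, searched as TTTGAA or TTCGAA on both strands, was in 2 (5.13%), MCM6 and RRM1, against 14.6%. For a member the window nearest its annotated start was used, and for all genes the first one listed. The windows of all genes were not matched to the members for GC content or expression. A match is a description of these letters. MCM4, MCM5, RPA2, RPA3, CCNE2, POLD3 and GINS4 had no entry.

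Every member was expressed. The lowest count of any member in any library was 90, and 45 of the 46 had at least 100 counts in each. Levels were compared between genes in FPKM, fragment counts divided by gene length and library size. In the control libraries MCM7, a subunit of the helicase ring, was highest at 369 ± 9.82 FPKM (SD, n = 3). PCNA, the sliding clamp, followed at 240 ± 14.3 FPKM, and TK1, the thymidine kinase of the salvage route, at 224 ± 36.4 FPKM. The ranges of PCNA and TK1 overlapped, and that of MCM7 lay above both. The lowest were POLE, the catalytic subunit of polymerase epsilon, at 4.09 ± 0.207 FPKM, its partner POLE2 at 3.24 ± 0.293 FPKM, and CCNE2, a cyclin that drives entry into S phase, at 2.34 ± 0.686 FPKM. For POLE the deposited gene length was 16609 bases, against 8011 for its longest transcript, so its place in this order depends on the length used. In that order of control levels, 38 of the 45 pairs of neighbours had overlapping ranges. The 7 gaps lay below MCM7, TK1, MCM4, RFC4, ORC6, GINS3 and POLE.

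**Figure D1:**
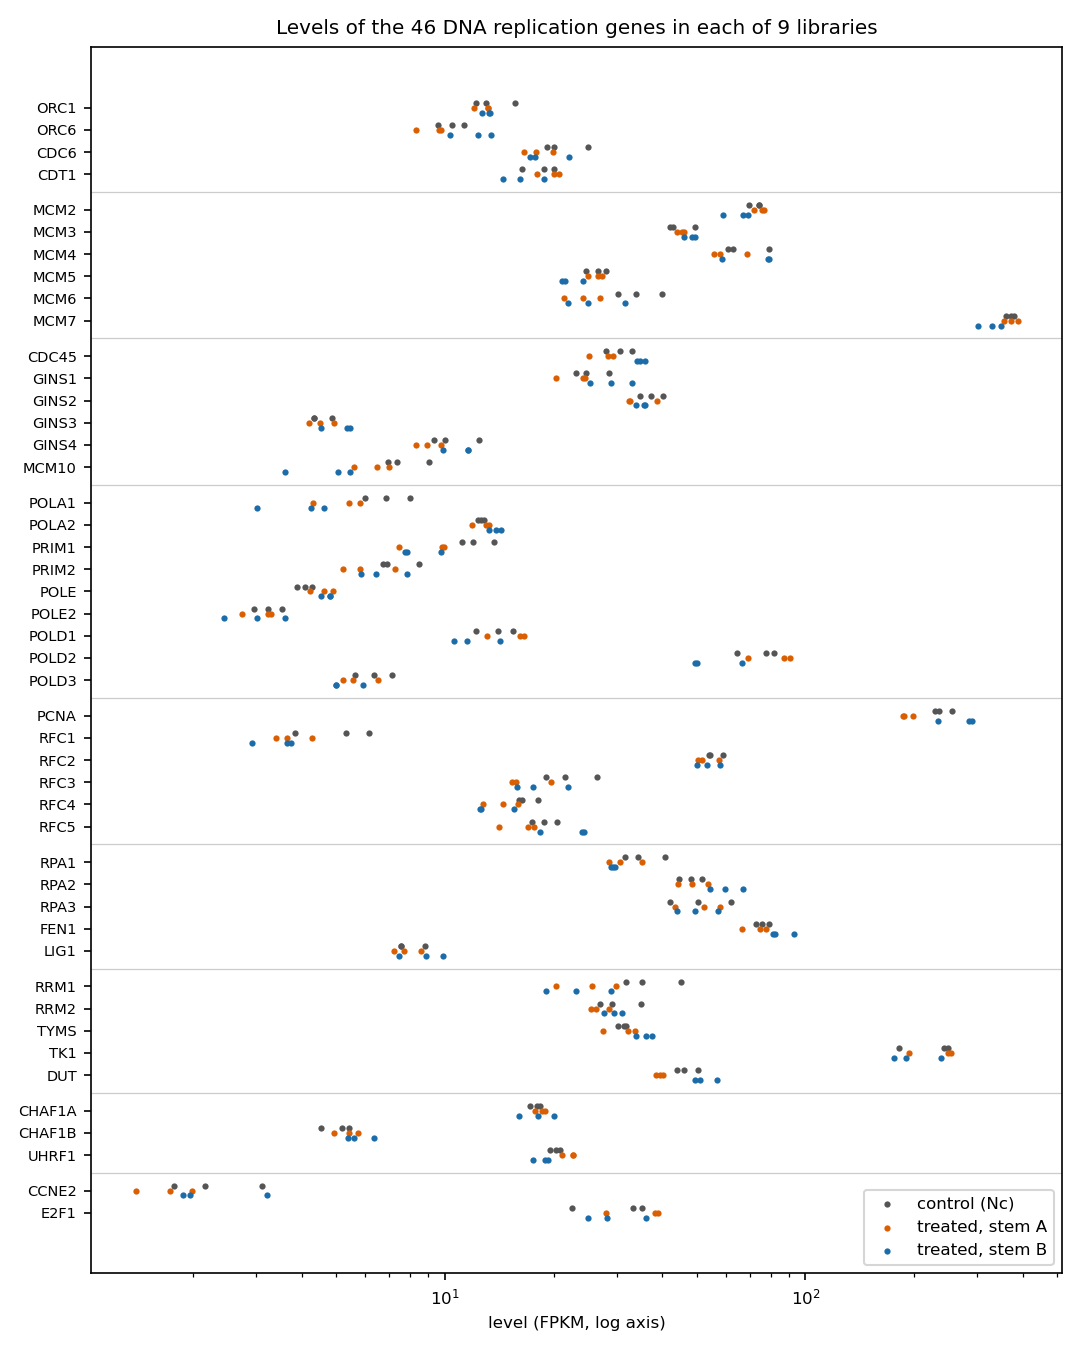
FPKM of each of the 46 genes in each library on a log axis, 1 point a library, grouped by role from origin licensing at the top to S-phase regulators at the bottom. Control, A and B points of a gene lie close together beside the spread between genes, from about 2 FPKM for CCNE2 to over 300 FPKM for MCM7.

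Subunits of the same complex differed in level. In the controls MCM7 was 14 ± 0.558 times as high as MCM5 (SD, n = 3) and 5.07 ± 0.244 times as high as MCM2, so 1 subunit of the ring took 23.4 ± 0.932% of all counts of the 46 genes. MCM7 hosts the microRNA genes MIR25, MIR93 and MIR106B, which had a mean of at most 44.2 counts against 25828 for MCM7. POLD2, the small accessory subunit of polymerase delta, was 5.39 ± 0.397 times as high as its catalytic subunit POLD1. The loader subunit RFC2 was 11.4 ± 3.42 times as high as RFC1. MCM7 to MCM5 was also 14.2 ± 0.110 in A and 14.7 ± 0.597 in B.

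In A against control no member passed the threshold, an adjusted p under 0.05 in edgeR's quasi-likelihood test with Benjamini-Hochberg adjustment over 13845 genes. Of all genes tested 2.72% passed, 1.76% higher and 0.953% lower. Unadjusted p was under 0.05 for 7 members (15.2%), all lower in A, against 22.6% of all genes, and these were MCM6, POLA1, PRIM1, PCNA, RFC1, RFC3 and RRM1. DESeq2 called 2 members lower, MCM6 and RRM1, where it called 1.13% of all genes lower. DESeq2's shares are over 27979 genes with no low count filter, and those of edgeR over 13845. Ranges of the A and control libraries did not overlap for 7 members that were lower (15.2%, against 12.3% of all genes) and 1, UHRF1, that was higher (2.17%, against 13.8%). The log2 fold changes ran from -0.55 for RRM1 to 0.22 for E2F1, with 28 below 0 and a median of -0.08, beside 0.01 over all genes. All 46 estimates lay within 1.5 times of control, and 37 within 1.2 times. Intervals from 6 residual degrees of freedom, wider than 95% intervals of the test itself, reached from -1.04 to 0.67 over the 46 genes. A change of over 1.5 times lay within the interval of some of them. In simulated counts for this comparison, 25.5% of genes changed by 1.5 times and 74.5% of those changed by 2 times were recovered.

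The same-numbered A and control libraries deviated together, and a fit of these 6 libraries with the replicate block, added after the data were seen, called 17 members lower (37.0%) and 1, E2F1, higher (2.17%). Of all genes in that fit 34.8% were called, 18.3% lower and 16.5% higher. The replicate block in a fit of all 9 libraries called 0 members, where 1.76% of all genes passed. That block also matched the B libraries by number. Their deviations from stem means correlated negatively with those of same-numbered libraries, at -0.312 to -0.292 for control and -0.226 to -0.188 for A. Its 0 calls therefore cannot be weighed against the calls of the block in 6 libraries. The pairing of A with control was taken from correlations in these same libraries, and no label gives it. The p-values of the block in 6 libraries may therefore be too small. By the block in 6 libraries RRM1, the large subunit of ribonucleotide reductase, fell by 0.57 (log2, SE 0.06, edgeR adjusted p = 3.66e-05) and MCM6 fell by 0.53 (SE 0.06, edgeR adjusted p = 3.81e-05). RRM1 was at -0.59, -0.62 and -0.45 in the 3 numbered pairs, and MCM6 at -0.56, -0.48 and -0.48, as log2 ratios of CPM. All 3 pairs were lower in A for 24 members (52.2%) against 28.4% of all genes, and higher for 8 (17.4%) against 30.3%.

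**Figure D2:**
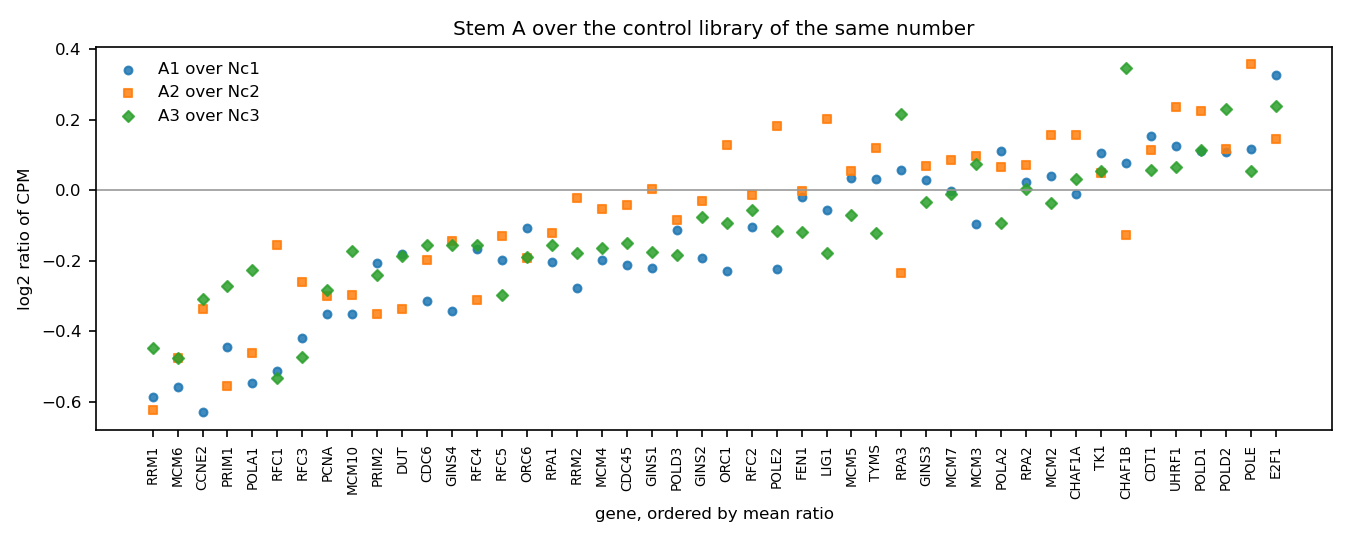
Log2 ratio of CPM in each A library over the control library of the same number, for each of the 46 genes ordered by the mean ratio; the 3 marker shapes are the 3 pairs. The 3 pairs of a gene mostly lie on the same side of 0, with RRM1 and MCM6 at the low end.

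In B against control 5 members were lower and 0 were higher. POLA1 and PRIM1, which start each new strand, MCM10, which helps the helicase fire, RRM1, which makes deoxynucleotides, and RFC1, the largest clamp loader subunit, fell by between 0.52 and 0.80 on the log2 scale. In this comparison 13.4% of all genes passed edgeR's test, 7.24% lower and 6.12% higher, and 10.9% of the members were lower. The median over the 46 was -0.05, beside -0.00 over all genes, with 27 below 0. Unadjusted p was under 0.05 for 10 members, against 29.2% of all genes. Ranges of the 3 B and 3 control libraries did not overlap for 11 members that were lower (23.9%, against 14.6% of all genes) and for 7 that were higher (15.2%, against 16.3%). DESeq2 called 6 lower, POLD2 being the addition, where 4.51% of all genes were lower. Without the 5 libraries with over 100 HBB counts, which leaves Nc3, A3, B1 and B2, 0 members were called and the 5 estimates lay between -0.61 and -0.43. With 1 control library left, calls over all genes fell from 1850 to 47 higher and 10 lower. Without B3 alone 1 member was called lower.

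B against A, the direct test of whether the stems differ, had 4 members higher in B (PCNA, RFC5, DUT and ORC6) and 1 lower (POLD2). Of all genes 18% passed here, 8.79% higher and 9.25% lower, and of the members 8.70% were higher and 2.17% lower. Their median was 0.03, beside -0.02 over all genes, and 13 (28.3%) had an unadjusted p under 0.05, against 32.5%. DESeq2 called 5 higher and 1 lower, where 4.24% and 5.05% of all genes were. The replicate block over all libraries, with numbers that do not pair B, called 1 higher and 1 lower, where 7.14% and 7.08% were. Ranges of A and B did not overlap for 10 members that were higher in B (21.7%, against 17.2% of all genes) and 6 that were lower (13.0%, against 17.1%). None of the 5 genes lower in B than in control passed here in edgeR's fit without offsets, where MCM10 came nearest at -0.44 (SE 0.16, edgeR adjusted p = 0.0649). With offsets for GC content and length, MCM10 (-0.47, edgeR adjusted p = 0.00861) and POLA1 (-0.41, edgeR adjusted p = 0.0284) were lower in B than in A. In that fit 15.8% of all genes were lower. Without A3 or without B3, 0 members were called, and 0 without the libraries with over 100 HBB counts, where the 4 positive estimates lay between 0.39 and 0.61 and POLD2 at -0.63. A against control and B against control share the control libraries, so their values are given side by side below and not correlated.

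**Figure D3:**
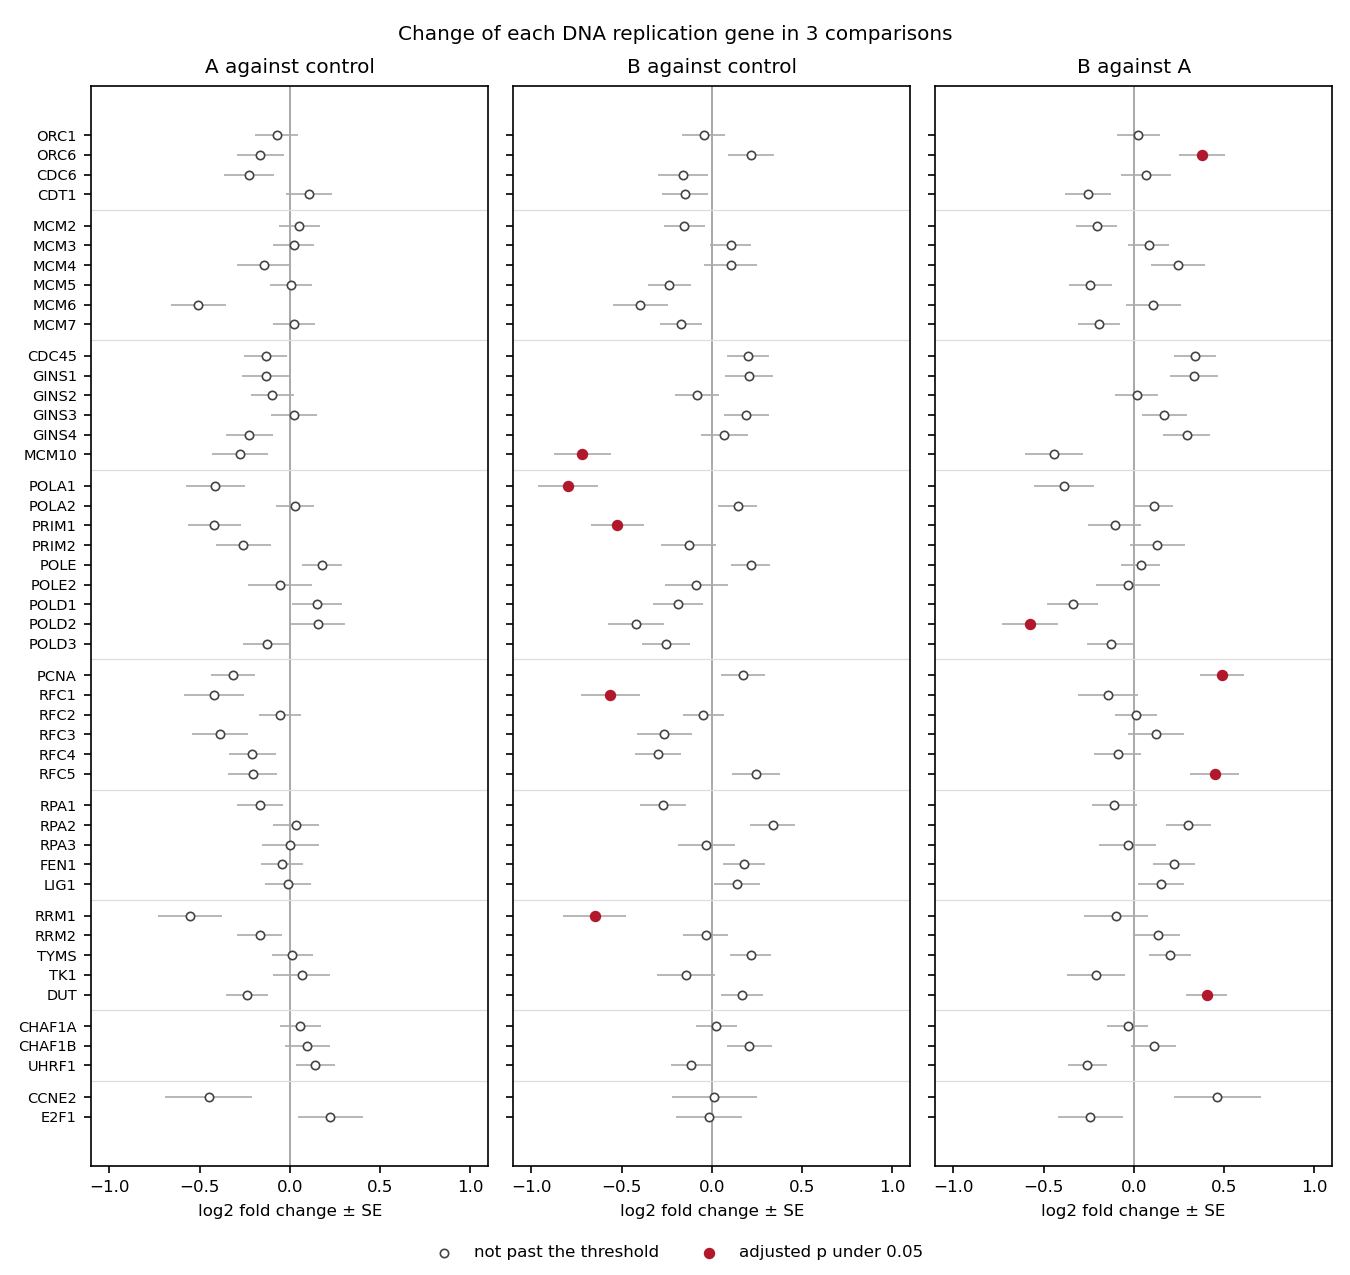
Log2 fold change ± SE of each of the 46 genes, in the order of roles used in the plot of levels, for A against control, B against control and B against A; filled points have an adjusted p under 0.05 in edgeR's quasi-likelihood test. No point is filled in the first panel, 5 are filled below 0 in the second, and 4 above and 1 below 0 in the third.

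Among the 4 genes of origin recognition and licensing, ORC6 alone passed in edgeR's fit of all 9 libraries without offsets, in B against A. ORC6 (chr16:46689643-46698394), the smallest subunit of the origin recognition complex, was at 10.4, 11.3 and 9.57 FPKM in the controls, 9.60, 9.76 and 8.33 in A, and 10.3, 12.4 and 13.4 in B. The A libraries all lay below the B libraries, while the controls overlapped both. B was 0.38 above A (log2, SE 0.13, edgeR adjusted p = 0.0499), a call lost in 9 of 18 alternatives. CDC6, which helps load the MCM ring, was at 24.9, 19.2 and 20.1 FPKM in the controls, 19.9, 16.5 and 17.9 in A, and 17.2, 22.1 and 17.8 in B. All 3 groups overlapped, with A at -0.23 (SE 0.14, edgeR adjusted p = 0.338) and B at -0.16 (SE 0.14, edgeR adjusted p = 0.482). ORC1, the subunit that marks origins for loading, moved least, at -0.07 in A, -0.05 in B and 0.03 between them (edgeR adjusted p = 0.748, 0.842 and 0.903). It stood at 15.6, 12.2 and 13.0 FPKM in the controls, 13.2, 13.2 and 12.1 in A, and 12.7, 13.2 and 13.3 in B. CDT1, the other loading factor, was at 0.10 in A and -0.15 in B.

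Of the 6 subunits of the helicase ring, none passed the threshold in any comparison in edgeR's fit of all 9 libraries without offsets. With offsets for GC content and length, MCM5, MCM6 and MCM7 were lower in B than in control, at -0.29, -0.29 and -0.27. Their edgeR adjusted p were 0.00844, 0.0364 and 0.0162, where 12.4% of all genes were called lower. MCM7 stood at 359, 371 and 378 FPKM in the controls, 355, 388 and 372 in A, and 348, 300 and 330 in B. A overlapped the controls, and the B libraries were all below both. The fits gave 0.02 for A (SE 0.12, edgeR adjusted p = 0.926) and -0.17 for B (SE 0.12, edgeR adjusted p = 0.360). MCM6 was the subunit farthest from 0, at 40.1, 30.2 and 33.8 FPKM in the controls, 27.0, 21.4 and 24.1 in A, and 24.9, 31.5 and 21.9 in B. All A libraries lay below the controls, and B overlapped both, with -0.51 in A (SE 0.15, edgeR adjusted p = 0.0853) and -0.40 in B (SE 0.15, edgeR adjusted p = 0.0931). MCM5 moved least in A at 0.01 (SE 0.12, edgeR adjusted p = 0.986), with 24.6, 26.6 and 28.0 FPKM in the controls, 24.9, 27.3 and 26.5 in A, and 24.2, 21.1 and 21.5 in B. MCM4, at 79.4, 60.9 and 62.8 FPKM in the controls, 68.6, 57.9 and 55.6 in A, and 58.9, 79.0 and 78.8 in B, spread over all groups. It was 0.25 higher in B than in A (SE 0.15, edgeR adjusted p = 0.265). MCM2, MCM5 and MCM7 were below both other stems in every B library, and MCM3 was at 0.02 in A and 0.11 in B.

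Of the 6 helicase activators, MCM10 alone passed in edgeR's fit of all 9 libraries without offsets, in B against control. MCM10 (chr10:13161554-13211104), which binds the CMG helicase as origins fire, was at 9.0, 6.97 and 7.36 FPKM in the controls, 7.0, 5.60 and 6.48 in A, and 5.44, 5.04 and 3.59 in B. Every B library lay below every A and control library, and A touched the lower end of the controls. B was at -0.72 (SE 0.16, edgeR adjusted p = 0.00922) and A at -0.28 (SE 0.16, edgeR adjusted p = 0.304). The call in B was lost in 2 of 18 alternatives, without B3 and without the libraries with over 100 HBB counts, where the estimate was -0.47. None of the other activators passed. CDC45, the helicase cofactor that gives the CMG its first letter, was at 33.1, 30.5 and 28.0 FPKM in the controls, 28.3, 29.3 and 25.1 in A, and 34.8, 35.8 and 34.0 in B. Its B libraries lay above all others, but the difference between B and A of 0.34 (SE 0.12, edgeR adjusted p = 0.0550) did not pass, and DESeq2 called it. Of the 4 GINS subunits, which clamp CDC45 to the ring, GINS3 moved least in A at 0.02 (SE 0.13, edgeR adjusted p = 0.938), with 4.85, 4.34 and 4.32 FPKM in the controls, 4.91, 4.50 and 4.19 in A, and 4.54, 5.33 and 5.45 in B. GINS1, GINS2 and GINS4 lay at -0.13, -0.10 and -0.22 in A and at 0.20, -0.08 and 0.07 in B.

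Of the 9 polymerase and primase genes, POLA1 and PRIM1 were lower in B than in control and POLD2 was lower in B than in A. POLA1 (chrX:24693919-24996986), the catalytic subunit of polymerase alpha, was at 7.98, 6.01 and 6.84 FPKM in the controls, 5.41, 4.31 and 5.79 in A, and 4.63, 4.25 and 3.01 in B. The controls lay above all treated libraries, and A and B overlapped. B was at -0.80 (SE 0.17, edgeR adjusted p = 0.00718), the largest change of any member, and A at -0.41 (SE 0.16, edgeR adjusted p = 0.160). The call was kept in 17 of 18 alternatives and lost without the libraries with over 100 HBB counts, where the estimate was -0.61 against 1 control library. POLA1 overlaps the pseudogene EEF1B2P3 on the other strand, which had a mean of 571 counts against 562, and the strand setting is not given in the sources used here. PRIM1 (chr12:56731596-56752373), the catalytic primase subunit, was at 13.7, 11.1 and 12.0 FPKM in the controls, 9.95, 7.47 and 9.83 in A, and 7.75, 9.72 and 7.87 in B. Both stems lay below the controls and overlapped each other, with -0.52 in B (SE 0.15, edgeR adjusted p = 0.0278) and -0.42 in A (SE 0.15, edgeR adjusted p = 0.120). The call in B was lost in the same number of alternatives as that of RFC1, 7 of 18. PRIM1 shares bases with NACA on the same strand, a gene of far higher counts (mean 5250 against 404), so its values are uncertain.

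The other subunits of the complex are POLA2 and PRIM2, and no difference between subunits was tested. POLA2, the regulatory subunit, was at 12.3, 12.6 and 12.8 FPKM in the controls, 13.2, 13.0 and 11.9 in A, and 13.9, 13.2 and 14.3 in B. Its B libraries lay above the controls, at 0.14 (SE 0.11, edgeR adjusted p = 0.399), and A was at 0.03 (SE 0.11, edgeR adjusted p = 0.895). PRIM2, the large primase subunit, was at -0.26 in A and -0.13 in B, and the replicate block in the A and control libraries called it lower in A, as it did POLA1 and PRIM1. The level of POLA1 relative to POLA2 was 0.553 ± 0.0859 in the controls, 0.409 ± 0.0775 in A and 0.289 ± 0.0676 in B (SD, n = 3), ratios chosen after the values were seen. POLD2 (chr7:44114681-44124358) was at 64.7, 81.6 and 77.8 FPKM in the controls, 69.2, 87.4 and 90.5 in A, and 66.9, 50.04 and 49.4 in B. The B libraries lay below all A libraries, and the controls overlapped both. B was 0.57 lower than A on the log2 scale (log2 fold change -0.57, SE 0.15, edgeR adjusted p = 0.0176), lost in 5 of 18 alternatives, and DESeq2 also called it lower in B than in control. POLD1 and POLD3, the catalytic and another accessory subunit, lay at -0.34 and -0.13 between B and A. POLE2 was near 0 in every comparison, at -0.05, -0.09 and -0.03 (edgeR adjusted p = 0.881, 0.788 and 0.923), with 3.23, 2.94 and 3.53 FPKM in the controls, 2.74, 3.30 and 3.23 in A, and 2.45, 3.61 and 3.00 in B. POLE was at 0.18 in A and 0.22 in B.

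Of the 6 clamp and clamp loader genes, PCNA and RFC5 were higher in B than in A and RFC1 was lower in B than in control. PCNA (chr20:5114953-5126626), the ring that tethers polymerases to DNA, was at 256, 235 and 228 FPKM in the controls, 199, 188 and 186 in A, and 232, 289 and 284 in B. A lay below all controls and all B libraries, and B overlapped the controls. B was 0.49 above A (SE 0.12, edgeR adjusted p = 0.0128), while A stood at -0.31 against control (SE 0.12, edgeR adjusted p = 0.154) and B at 0.18 (SE 0.12, edgeR adjusted p = 0.366). The call between B and A was lost in 3 of 18 alternatives. RFC5 (chr12:118013588-118033130), a small loader subunit, was at 20.4, 18.8 and 17.5 FPKM in the controls, 17.7, 17.0 and 14.1 in A, and 18.3, 24.4 and 24.0 in B. B lay above A throughout, by 0.45 (SE 0.14, edgeR adjusted p = 0.0309, lost in 6 of 18 alternatives), and the controls overlapped both. RFC5 overlaps WSB2 on the other strand.

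RFC1 (chr4:39287456-39366375) went the other way in B. It was at 6.15, 3.85 and 5.32 FPKM in the controls, 4.28, 3.41 and 3.65 in A, and 3.64, 3.73 and 2.92 in B. The B libraries lay below all controls, at -0.56 (SE 0.16, edgeR adjusted p = 0.0335), and A overlapped both, at -0.42 (SE 0.16, edgeR adjusted p = 0.153). The call in B was lost in 7 of 18 alternatives, among them library totals and leaving out Nc1, Nc3, B1 or B3. RFC2 moved least, at -0.06, -0.05 and 0.01 in the 3 comparisons (edgeR adjusted p = 0.80, 0.836 and 0.961), with 54.5, 58.9 and 54.1 FPKM in the controls, 50.2, 57.6 and 51.6 in A, and 53.4, 49.9 and 57.7 in B. All 6 clamp and loader genes had estimates below 0 in A, with a median of -0.26, and the replicate block in the A and control libraries called 5 of the 6 lower, RFC2 being the exception, where 18.3% of all genes were lower. The replicate block over all 9 libraries, with numbers that do not pair B, called 0 of the 6. RFC2 had a transcript GC content of 53.6%, and the other 5 had between 39.1% (RFC3) and 45.4% (RFC4). With offsets for GC content and length 0 of the 6 passed in A, with edgeR adjusted p from 0.170 (PCNA) to 0.552 (RFC5). RFC2 was then at -0.20, beside -0.24 for PCNA, -0.23 for RFC1, -0.14 for RFC3 and RFC4, and -0.12 for RFC5. RFC3 and RFC4 were at -0.39 and -0.21 in A and -0.26 and -0.30 in B. RFC4 overlaps EIF4A2, a gene of higher counts, on the other strand.

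None of the 5 genes of single-strand binding and Okazaki fragment processing passed in any comparison in edgeR's fit of all 9 libraries without offsets. With offsets for GC content and length, RPA1 was lower in B than in control (-0.35, edgeR adjusted p = 0.0103), where 12.4% of all genes were lower. LIG1 was then higher in B than in A (0.26, edgeR adjusted p = 0.0242), where 14.9% of all genes were higher. RPA2, the middle subunit of the complex that coats single-stranded DNA, was at 48.2, 51.8 and 44.6 FPKM in the controls, 48.5, 53.7 and 44.3 in A, and 54.3, 60.0 and 67.1 in B. Its B libraries lay above all others, at 0.34 against control (SE 0.13, edgeR adjusted p = 0.0835) and 0.30 against A (SE 0.13, edgeR adjusted p = 0.105). RPA1, the large subunit, was at 40.8, 31.5 and 34.3 FPKM in the controls, 35.1, 28.6 and 30.6 in A, and 29.6, 29.2 and 28.8 in B. It lay at -0.16 in A (SE 0.13, edgeR adjusted p = 0.457) and at -0.27 in B (SE 0.13, edgeR adjusted p = 0.168), the other side of 0 from RPA2. RPA3, the small subunit, was the member nearest to no change in A, at 0.00 (SE 0.16, edgeR adjusted p = 0.993), with 42.2, 62.2 and 50.3 FPKM in the controls, 43.5, 52.2 and 58.0 in A, and 57.3, 44.0 and 49.3 in B. FEN1, the flap nuclease, and LIG1, the ligase that seals the fragments, were at -0.04 and -0.01 in A and 0.18 and 0.14 in B. FEN1 overlaps TMEM258 on the other strand (mean 3365 counts against 3241).

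Of the 5 genes of deoxynucleotide supply, RRM1 was lower in B than in control and DUT was higher in B than in A. RRM1 (chr11:4094707-4138876) was at 45.3, 31.8 and 35.3 FPKM in the controls, 29.9, 20.4 and 25.6 in A, and 23.1, 28.8 and 19.1 in B. Both treated stems lay below every control and overlapped each other. B was at -0.65 (SE 0.18, edgeR adjusted p = 0.0251), lost in 6 of 18 alternatives, and A at -0.55 (SE 0.18, edgeR adjusted p = 0.0992). RRM2, the small subunit that peaks in S phase, was at 34.9, 27.0 and 29 FPKM in the controls, 28.5, 26.2 and 25.5 in A, and 27.6, 31.1 and 29.4 in B. Its groups overlapped, at -0.17 in A (SE 0.12, edgeR adjusted p = 0.441) and -0.03 in B (SE 0.12, edgeR adjusted p = 0.895). The level of RRM1 relative to RRM2 was 1.23 ± 0.0613 in the controls, 0.944 ± 0.147 in A and 0.803 ± 0.142 in B (SD, n = 3).

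DUT (chr15:48331011-48343373), which removes dUTP before it is built into DNA, was at 46.2, 50.4 and 44.1 FPKM in the controls, 40.4, 39.4 and 38.5 in A, and 49.3, 50.9 and 56.7 in B. A lay below all controls and all B libraries, and B overlapped the controls. B was 0.40 above A (SE 0.12, edgeR adjusted p = 0.0238), lost in 5 of 18 alternatives. TYMS, thymidylate synthase, was at 31.7, 31.4 and 30.1 FPKM in the controls, 32.1, 33.7 and 27.5 in A, and 33.9, 36.0 and 37.5 in B. B lay above the other stems, at 0.22 against control (SE 0.12, edgeR adjusted p = 0.229), and A was at 0.01 (SE 0.12, edgeR adjusted p = 0.959). TK1 was at 0.07 in A and -0.14 in B. TYMS overlaps ENOSF1 on the other strand.

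The 3 genes of chromatin assembly and the 2 S-phase regulators passed in no comparison in edgeR's fit of all 9 libraries. CHAF1A, the large subunit of the factor that places histones on new DNA, was at 18, 17.2 and 18.3 FPKM in the controls, 17.7, 18.9 and 18.6 in A, and 20.1, 16 and 18.1 in B. It was near 0 in every comparison, at 0.06, 0.03 and -0.03 (edgeR adjusted p = 0.785, 0.910 and 0.868). UHRF1, which brings the maintenance methyltransferase to new DNA, was at 20.9, 19.5 and 20.4 FPKM in the controls, 22.6, 22.7 and 21.1 in A, and 19.3, 17.5 and 18.9 in B. A lay above and B below the controls, at 0.14 (SE 0.11, edgeR adjusted p = 0.451) and -0.11 (SE 0.11, edgeR adjusted p = 0.526), and B against A was -0.26 (SE 0.11, edgeR adjusted p = 0.114). CHAF1B, the partner of CHAF1A, was at 0.10 in A and 0.21 in B. CHAF1A overlaps UBXN6 on the other strand (mean 1203 counts against 1293).

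CCNE2 was at 3.11, 1.77 and 2.16 FPKM in the controls, 1.99, 1.39 and 1.73 in A, and 1.97, 3.20 and 1.88 in B. The groups overlapped, and its SE was the largest of the members, with A at -0.45 (SE 0.24, edgeR adjusted p = 0.279) and B at 0.01 (SE 0.23, edgeR adjusted p = 0.978). The replicate block in the A and control libraries called CCNE2 lower in A (-0.46, SE 0.13, edgeR adjusted p = 0.0144). With offsets for GC content and length it was at -0.12 in A (edgeR adjusted p = 0.742). CCNE2 overlaps INTS8 and NDUFAF6 on the other strand, with means of 525 and 386 counts against 158, and the strand setting is not given. E2F1, a factor that switches on many of the other genes here, was at 22.5, 35.1 and 33.2 FPKM in the controls, 27.9, 38.3 and 38.9 in A, and 36.1, 25.0 and 28.2 in B. All groups overlapped, with A at 0.22 (SE 0.18, edgeR adjusted p = 0.478) and B at -0.02 (SE 0.18, edgeR adjusted p = 0.968). In the numbered pairs A exceeded control by 0.33, 0.14 and 0.24 on the log2 scale, and the replicate block in these 6 libraries gave 0.21 with an edgeR adjusted p of 0.0275. With offsets for GC content and length, the estimate for E2F1 in A was on the other side of 0, at -0.06 (SE 0.10, edgeR adjusted p = 0.783).

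**Figure D4:**
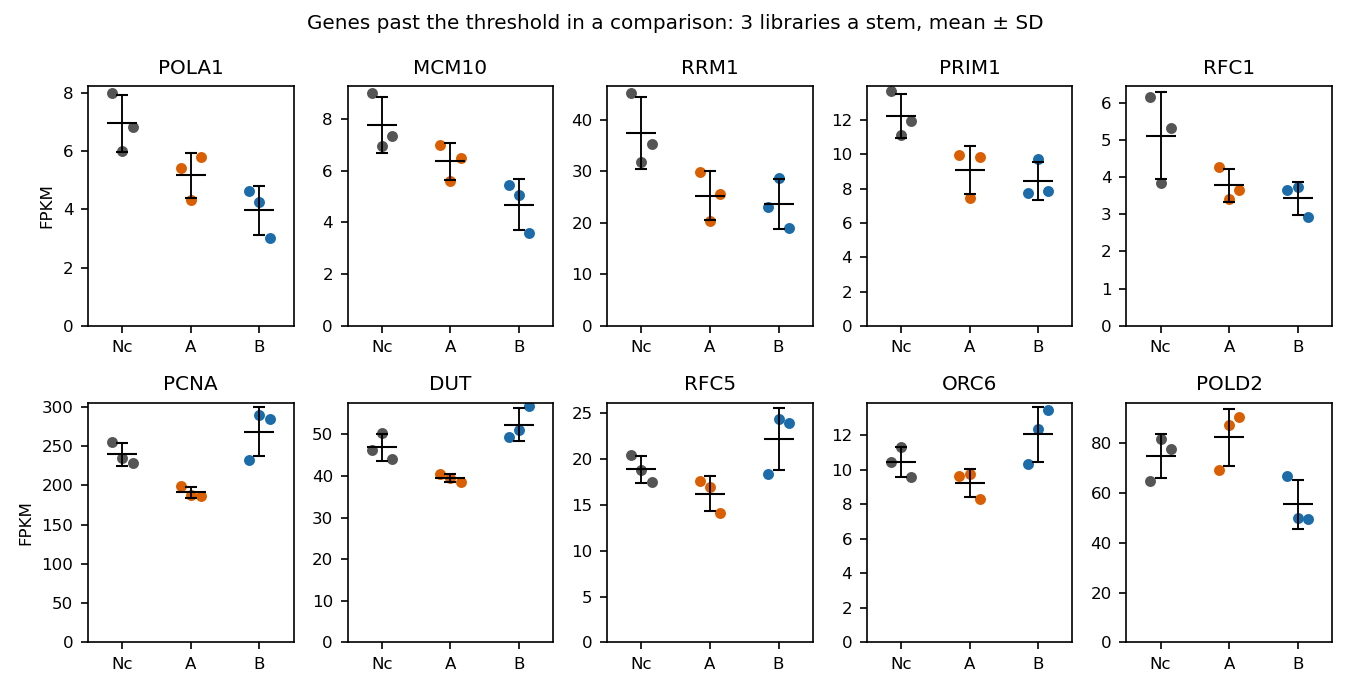
FPKM of the 10 genes past the threshold in a comparison, with 1 point a library and the mean ± SD (n = 3) of each stem; each axis starts at 0. POLA1, MCM10, RRM1, PRIM1 and RFC1 are lower in B than in Nc, while PCNA, DUT, RFC5 and ORC6 have their lowest mean in A and POLD2 its lowest in B.

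The change in A varied with the GC content of the transcript. Over the 46 members, Pearson's r between transcript GC content and the log2 fold change was 0.80 in A against control, beside 0.49 over 13836 genes, 0.16 in B against control and -0.44 in B against A. These are correlations across genes, which share the same libraries and are not independent. Of the 15 members of lowest GC content (36.9 to 44.5%), 14 were below 0 in A, with a median of -0.28. Of the 15 of highest GC content (53.6 to 65.0%), 3 were below 0, with a median of 0.06, both sets being chosen after the values were seen. The r was 0.78, 0.71 and 0.67 in the numbered pairs and 0.64 without Nc1. Libraries differed in the same respect: among all genes, the fifth lowest in GC deviated by a median of 0.41 in Nc1 and -0.22 in A2 (log2), and the fifth highest in GC by -0.30 and 0.28. With offsets for GC content and length, r over the members was -0.06, and 0 members passed in A against control, where 4.49% of all genes did. In that fit 38 of the 46 were below 0 with a median of -0.14, beside -0.003 over all genes. The share of all genes below 0 was not counted. In B against control these offsets gave 13 lower and 2 higher (GINS1 and GINS3), where 12.4% of all genes were lower and 11.5% higher. The 13 were POLA1, PRIM1, MCM10, RRM1, RFC1, MCM5, MCM6, MCM7, POLD1, POLD2, RPA1, RFC4 and CDT1. In B against A the offsets gave 7 higher and 3 lower, where 14.9% and 15.8% of all genes were. The 7 were PCNA, RFC5, DUT, ORC6, CDC45, GINS1 and LIG1, and the 3 were POLD2, MCM10 and POLA1.

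**Figure D5:**
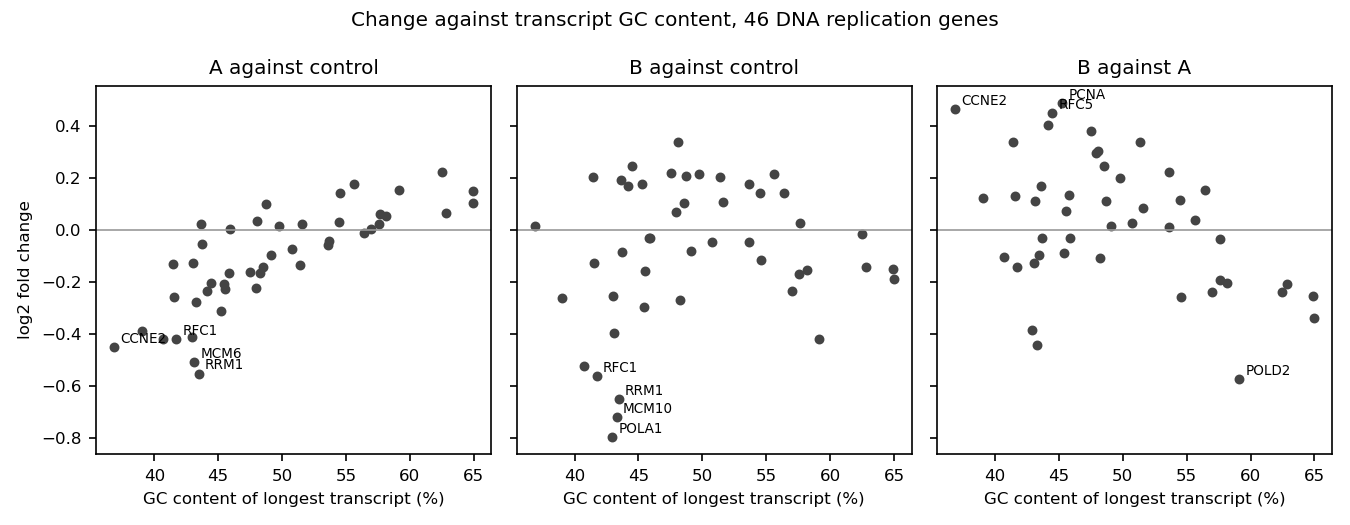
Log2 fold change of each of the 46 genes against the GC content (%) of its longest transcript, in each comparison, with the 4 genes farthest from 0 named. Points rise from left to right for A against control and show no such rise for B against A.

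Of 75 other genes of the same pathway, in 7 lists, 74 were tested. In A against control 1 was lower (1.35%) and 0 were higher. The replicate block in the A and control libraries called 34 lower (45.9%) and 6 higher (8.11%), against 18.3% and 16.5% of all genes. The block over all 9 libraries, with numbers that do not pair B, called 0. The 1 gene was DNA2, a nuclease of Okazaki fragments, at 2.32, 1.56 and 1.73 FPKM in the controls, 1.2, 0.904 and 1.15 in A, and 1.24, 1.52 and 1.45 in B. All A libraries lay below the controls, by a log2 fold change of -0.77 (SE 0.19, edgeR adjusted p = 0.0385). Its call was lost in 9 of 19 alternatives, among them the block over all 9 libraries, the GC content and length offsets and leaving out Nc1, Nc3, A2 or A3. In B against control 11 were lower (14.9%) and 2 higher (2.70%), beside 7.24% and 6.12% of all genes. Of 11 genes of helicase activation and fork protection, 6 were lower and 0 higher in B, with a median of -0.47. The largest change of that list was in WDHD1, a scaffold between helicase and polymerase alpha, at 7.12, 4.41 and 5.66 FPKM in the controls and 3.76, 3.96 and 2.62 in B (-0.72, SE 0.18, edgeR adjusted p = 0.0160). TOPBP1, ATR, CLSPN, TIPIN and MTBP were the others. Of 18 alternatives, the call was lost in 3 for WDHD1, 7 for MTBP, 8 for CLSPN, 9 for ATR, 10 for TOPBP1 and 12 for TIPIN.

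Of 10 remaining licensing factors 2 were lower in B, ORC3 (-0.81, SE 0.16, edgeR adjusted p = 0.00576) and DBF4, the activator of the CDC7 kinase. ORC3, a subunit of the origin recognition complex, was at 9.87, 8.07 and 8.5 FPKM in the controls and 5.02, 5.85 and 4.03 in B. Of 7 chromatin replication factors HAT1, which acetylates new histone H4 (-0.77, SE 0.17, edgeR adjusted p = 0.00940), and ASF1A were lower. Of 18 E2F and RB regulators RB1, which holds E2F in check, was lower (-0.67, SE 0.14, edgeR adjusted p = 0.00684). The 2 that rose in B were TK2, the mitochondrial thymidine kinase (0.76, SE 0.19, edgeR adjusted p = 0.0165), and CDKN2B, an inhibitor of CDK4 and CDK6 (0.67, SE 0.17, edgeR adjusted p = 0.0188).

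Between B and A, 5 of the 74 were higher (6.76%) and 3 lower (4.05%), beside 8.79% and 9.25% of all genes. CDKN2B was at 1.87, 2.02 and 1.94 FPKM in the controls, 1.52, 1.45 and 1.03 in A, and 3.15, 2.69 and 3.33 in B. Its stems did not overlap, with B above A by 1.19 (SE 0.18, edgeR adjusted p = 0.000348), a call kept in all 18 alternatives run. TK2 (0.71, SE 0.19, edgeR adjusted p = 0.0166), E2F2 (0.45, SE 0.13, edgeR adjusted p = 0.0250), DCK and CDKN2C were also higher. Their calls were lost in 3 of 17 alternatives for TK2, 7 of 18 for E2F2, 8 of 18 for DCK and 2 of 17 for CDKN2C. DCTPP1, a deoxynucleotide phosphatase (-0.65, SE 0.16, edgeR adjusted p = 0.0130), RECQL4, a helicase that acts at initiation (-0.52, SE 0.15, edgeR adjusted p = 0.0261), and MYBL2, an S-phase transcription factor (-0.42, SE 0.14, edgeR adjusted p = 0.0494), were lower. Of 18 alternatives, the call was lost in 5 for DCTPP1, 6 for RECQL4 and 11 for MYBL2.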

How the data were processed

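RNA from HaCaT cells was sequenced in read pairs of 150 bases, per the labels' protocols. Tools in the submitters' processing notes are HISAT2, StringTie and FastQC, with the build GRCh38 and no roles. The annotation, strand setting and handling of multi-mapped reads were not given in the sources used here. The deposited gene counts are whole numbers, not normalized. The deposited FPKM were the count over gene length and over a factor per library, 0.936 to 1.07 times its total, set by the authors in a way not stated. The factor affects FPKM levels, and no test used them.

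The members and gene lists were chosen with earlier results of these data known. Columns were mapped by stem: Nc read as control, A and B as treated by elimination, with no time assigned. edgeR 4.0.16 in R 4.3.3 fitted the 3 stems over all 9 libraries (TMM, filterByExpr, quasi-likelihood test, Benjamini-Hochberg at 0.05; 13845 genes, all 46 members included). DESeq2 1.42.0 was an alternative. Other alternatives were library totals, DESeq2 size factors in edgeR, no low count filter, a mean of at least 100 counts, only the 2 groups compared, the replicate block, GC content and length offsets, and leaving out each library. 2 were added after the data were seen. The test was checked on simulated counts of A against control: of 200 genes changed by 1.5 times among 13645 it recovered 51 and called 2 others, and of 200 changed by 2 times among 13625 it recovered 149 and called 11 others.

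Named members were those called in a comparison, the largest and smallest change of each role, and MCM7, PCNA, TYMS, RRM2, CDC6, CCNE2 and E2F1, with others given as estimates. Of the other lists the called gene with the largest change in each direction was named. Whether replicate numbers pair libraries was checked by the correlation of deviations from stem means. It was 0.436, 0.237 and 0.236 for same-numbered A and control libraries (others -0.285 to 0.0548), so these were taken as paired. It was -0.312 to -0.292 for B and control and -0.226 to -0.188 for B and A, which were not. Promoter windows are RefSeq's on GRCh38.p14, matched by symbol for 39 of 46 members. Windows reaching over 30 bases into the annotated gene were not printed but were counted in the shares with a match. GC content was that of the longest GENCODE 29 transcript. Plots used Python 3.11.15 and matplotlib 3.10.9.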

Additional observations from a re-analysis of the deposited data

Results flagged for a closer look

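For 5 members the effects in B and in A, each against control, differed by the direct test of B against A in edgeR's quasi-likelihood test with Benjamini-Hochberg adjustment. The difference on the log2 scale was 0.49 for PCNA, 0.45 for RFC5, 0.40 for DUT and 0.38 for ORC6, and -0.57 for POLD2. PCNA, RFC5, DUT and ORC6 were below control in A and above it in B, and POLD2 was above control in A and below it in B, with neither effect alone past the threshold in edgeR's fit of all 9 libraries. Other fits did call some of them: the replicate block in the A and control libraries called PCNA, DUT and RFC5 lower in A (edgeR adjusted p = 0.00139, 0.00927 and 0.0140), and DESeq2 (adjusted p = 0.0373) and edgeR with the GC content and length offsets (adjusted p = 0.00186) called POLD2 lower in B than in control. Of the members 8.70% were higher in B than in A and 2.17% lower, against 8.79% and 9.25% of all genes tested. Without the libraries with over 100 HBB counts the differences were 0.49, 0.61, 0.39, 0.45 and -0.63 in the same order, none past the threshold in a fit with 1 control and 1 A library. The part of the other cell type markers was not tested. Which of the stems is the earlier in time is not known from the sources used here.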

How the results depend on the processing

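Each alternative was compared with edgeR's fit of all 9 libraries without block or offsets. No member called in either of them changed sign between them, nor did any other pathway gene called in that fit. Alternatives were not compared with each other. E2F1, called higher in A by the block in 6 libraries, was at -0.06 with the GC content and length offsets (edgeR adjusted p = 0.783). Of the 3016 single-gene values recomputed, 165 lost the threshold and 63 gained it. Among genes called in neither setting, 160 of 2287 changed sign. Depth was not varied. The members had at least 90 counts in every library, and the SE of their log2 fold changes had a median of 0.13. Over the settings with a count, the other pathway genes called ranged from 0 to 6 higher and 0 to 34 lower in A against control, 0 to 4 higher and 0 to 16 lower in B against control, and 1 to 9 higher and 0 to 14 lower in B against A.

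Members called lower in A against control were 4 without a low count filter, 2 with DESeq2, and 17 with the replicate block in the 2 groups compared, which called 1 higher. All-gene calls there moved to 663 lower without a low count filter, 443 higher and 317 lower with DESeq2, 151 higher with only the 2 groups compared, 149 higher with the replicate block over all libraries, 260 lower with GC content and length offsets, and 2179 higher and 2422 lower with the replicate block in the 2 groups compared, from 244 and 132. In B against control the members called lower were 2 with library totals, 3 with a mean of at least 100 counts and 13 with GC content and length offsets, which called 2 higher. All-gene calls moved from 847 higher and 1003 lower to 492 lower with library totals, 1535 lower without a low count filter, 648 lower with a mean of at least 100 counts, and 1593 higher and 1710 lower with GC content and length offsets. In B against A the members called higher were 7 with a mean of at least 100 counts, 1 with the replicate block and 7 with GC content and length offsets, and those called lower were 2 without a low count filter, 2 with only the 2 groups compared and 3 with the offsets. All-gene calls moved from 1217 higher and 1281 lower to 799 lower with library totals, 745 lower with a mean of at least 100 counts, and 2066 higher and 2191 lower with the offsets. The replicate block, with numbers that do not pair B, cost the calls of DUT, RFC5 and ORC6. As a hint from the data, B1 deviated most like number 3, B2 like number 1 and B3 like number 2 of the other stems. Nothing was crossed.

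Leaving out 1 library gave 0 to 2 members lower and 0 higher in A against control, 1 to 6 lower and 0 to 1 higher in B against control, and 0 to 7 higher and 0 to 2 lower in B against A. All-gene calls ranged from 69 to 559 higher and 32 to 351 lower in A against control, 287 to 922 and 202 to 1171 in B against control, and 587 to 1557 and 552 to 1735 in B against A. In B against control the calls were 3 lower without Nc1, 2 without Nc3, 3 without B1 and 1 without B3. In B against A they were 0 higher and 0 lower without A3 or without B3, 1 higher and 0 lower without A2, 2 higher and 0 lower without B2, and 7 higher without B1; lower calls were 2 without Nc1 and 2 without A1. In A against control 2 were lower without A1. Where a stem keeps 2 libraries, its spread is that of the pooled fit.

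Without the 5 libraries with over 100 HBB counts, an alternative added after the data were seen, no member was called in any comparison. All-gene calls fell to 15 higher and 15 lower, 47 and 10, and 245 and 215, in the order A against control, B against control and B against A. This leaves 1 control and 1 A library, which are assumed to vary like B1 and B2.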
